A study of Mus musculus with 20 samples.

Results

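The 39 Hox genes are the rows of the expression table whose symbol is Hox, a cluster letter from a to d and a paralog number, out of 51789 genes in all. They were followed in 2 tissues of the mouse intervertebral disc, the nucleus pulposus (NP, the gelatinous core) and the annulus fibrosus (AF, the lamellar collagen ring that encloses the core). All mice were BL6, entered the study at 18 months of age, were injected intraperitoneally each week for 6 months and were killed at 24 months. The vehicle group received DMSO and the other group received MDL-800 in DMSO, a small molecule activator of the chromatin deacylase SIRT6, so that every library comes from DMSO-exposed animals. There were 20 libraries of total RNA in 4 groups of 5: NP vehicle (libraries 1, 2, 3, 5 and 6), NP MDL-800 (15, 18, 19, 20 and 22), AF vehicle (8, 9, 10, 12 and 13) and AF MDL-800 (25, 27, 28, 29 and 30). The tissues were separated by dissection under a microscope. The spinal level of the discs, the dose, the sex, and whether a library is 1 animal or a pool are not given in the sources used here, so p-values measure the spread between libraries.

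Hox genes encode homeodomain transcription factors and lie in 4 clusters, A to D, in which genes at the same position form a paralog group. In the embryo, low-numbered paralog groups are switched on early and mark anterior levels of the body axis, while high-numbered groups mark progressively more posterior levels, and adult mesenchymal cells keep much of this positional code. The NP descends from the notochord and the AF from the sclerotome of the somites, the tissue in which Hox genes set vertebral identity. Polycomb complexes hold inactive Hox genes silent, and trithorax complexes keep active ones on.

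On build GRCm38 the 11 cluster A genes lie on the minus strand of chromosome 6. The 10 genes of cluster B lie on chr11:96194316-96368256, the 9 of cluster C on chr15:102921103-103036852 and the 9 of cluster D on chr2:74668310-74765142. All 39 are annotated as protein-coding. In the GENCODE M21 annotation 10 members share exonic bases with a gene on the opposite strand and 9 with one on the same strand. Among the latter, Hoxd3 and Hoxd4 share 62.3% and 52.3% of their exonic length with same-strand genes, each with the other among them. The largest opposite-strand shares are 52.9% for Hoxb3, 35.0% for Hoxa11, 27.3% for Hoxb2 and 25.4% for Hoxa3. Values of such genes are uncertain, because the program that counted reads and its strand setting are not given in the sources used here. RefSeq promoter windows on GRCm38.p6 were matched for 22 of the 39 genes, in 24 windows. The 4 windows shown are the 250 bases before the start site of 2 genes that were higher in NP (Hoxa5 and Hoxd10) and 2 that were higher in AF (Hoxa13 and Hoxb8). Each is written 5′ to 3′ on the strand of the gene, with CpG dinucleotides, the substrate of promoter methylation and a feature of Polycomb target promoters, in capitals.
Hoxa5 (chr6:52204588-52204837, minus strand): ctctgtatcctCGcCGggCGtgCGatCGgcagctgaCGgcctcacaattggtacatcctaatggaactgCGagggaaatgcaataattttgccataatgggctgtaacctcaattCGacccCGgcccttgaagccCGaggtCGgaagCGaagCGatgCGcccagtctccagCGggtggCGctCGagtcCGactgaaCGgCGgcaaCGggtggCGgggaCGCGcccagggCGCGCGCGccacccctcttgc
Hoxd10 (chr2:74691641-74691890, plus strand): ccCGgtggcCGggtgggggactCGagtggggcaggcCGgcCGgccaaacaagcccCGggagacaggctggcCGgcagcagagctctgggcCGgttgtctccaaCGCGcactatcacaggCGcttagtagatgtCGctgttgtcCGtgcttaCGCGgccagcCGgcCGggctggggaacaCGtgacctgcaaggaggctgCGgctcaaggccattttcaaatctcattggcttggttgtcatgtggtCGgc
Hoxa13 (chr6:52260881-52261130, minus strand): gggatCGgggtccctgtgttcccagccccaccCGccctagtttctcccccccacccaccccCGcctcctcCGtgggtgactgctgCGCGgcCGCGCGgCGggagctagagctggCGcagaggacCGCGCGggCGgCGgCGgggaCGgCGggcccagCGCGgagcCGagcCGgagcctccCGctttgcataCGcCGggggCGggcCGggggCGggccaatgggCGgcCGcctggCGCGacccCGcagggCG
Hoxb8 (chr11:96281655-96281904, plus strand): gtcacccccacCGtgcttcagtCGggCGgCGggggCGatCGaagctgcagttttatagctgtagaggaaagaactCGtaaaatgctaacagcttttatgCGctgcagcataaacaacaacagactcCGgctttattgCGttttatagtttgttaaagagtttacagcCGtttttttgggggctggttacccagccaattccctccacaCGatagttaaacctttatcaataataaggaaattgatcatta

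The CpG number was 28 for Hoxa5, 20 for Hoxd10, 35 for Hoxa13 and 12 for Hoxb8, so CpG-rich windows stand on both sides of the tissue difference. Over the 24 Hox windows the median was 12.5 CpG, from 2 to 35, against 6 over 32851 promoter windows of the same length. Members called higher in NP had 6 to 28 CpG (8 windows) and members called lower had 7 to 35 (6 windows), and these ranges overlap. Among motifs searched on both strands, CCAAT was in 14 of the 24 windows and in 33.85% of all windows, and TATAAA was in 4 and in 12.37%. The CDX-type letters TTTATG were in 5 Hox windows (Hoxa7, Hoxb8, Hoxd3, Hoxd4 and Hoxd11) and in 10.76% of all. The HOX-PBX composite TGATTNAT was in 2 (Hoxa2 and Hoxd11) and in 2.82% of all, and TTTACGA was in 1 (Hoxb8) and in 0.48%. A direct repeat of retinoic acid receptor sites with a spacing of 5 was in none of the 24 and in 0.01% of all windows. These are matches of letters in a short window and say nothing of binding.

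Values are fragments per kilobase of transcript and library size (FPKM), deposited by the authors, divided by a scaling factor for each library and called scaled FPKM below. They are per length, so levels of different genes can be set side by side. Differences are on the log2(scaled FPKM + 1) scale, which understates changes of low genes, and a gene is called at a limma adjusted p under 0.05 over 16383 genes. The depth, estimated from the spacing of low values, ranged from 12.6 to 21.9 M fragments, and at the median depth 1 fragment of a Hox gene is worth 0.0088 to 0.0744 FPKM. Of the 39 members, 32 reached 1 FPKM in 5 or more libraries and were tested. Of these, 15 reached 1 scaled FPKM in at least 5 libraries of each tissue, 16 did so in AF alone and Hoxd4 in NP alone. The 16 were Hoxa11, Hoxa13, Hoxb5 to Hoxb9 and all genes of cluster C. Members that entered through 1 tissue had to differ, so counts over the tested members describe them and support nothing.

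Both labelled tissues carried their own markers, and the AF libraries also carried those of the NP. Of 11 NP and 12 AF markers in the table, 0 were at 0 throughout a group. All 10 tested NP markers, among them the notochord factor T and Krt19, were called higher in NP vehicle than in AF vehicle, and 11 of 12 AF markers, among them Tnmd, Col1a1 and Pax1, were called lower. In AF vehicle the single NP markers stood at 21.7% to 51.6% of their NP level (median 23.4%). The summed NP markers were from 25920 to 31025 scaled FPKM in the NP vehicle libraries and from 2515 to 7154 in AF vehicle libraries 8, 10, 12 and 13, with 15172 in AF vehicle library 9. In NP vehicle 9 AF markers, a set formed after the values were seen by leaving out Fmod, Scx and Mkx, stood at 1.38% to 4.87% of their AF level, and all 12 at 1.38% to 142.3%. The 7 fibroblast markers were in NP at 1.16% to 22.4%, with a sum of 5.49 to 51.9 scaled FPKM in the NP vehicle libraries and 288.0 to 1626 in AF vehicle. All tested markers of fibroblasts, muscle, red blood cells, neutrophils, macrophages, B and plasma cells, bone, endothelium and fat were called lower in NP than in AF in both comparisons. So were 4 of 6 nerve and Schwann cell markers, while of 8 cartilage markers 4 were called lower and 1 higher in vehicle.

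Hox expression in the aged disc was broad and differed between the NP and the AF libraries. The summed Hox level was 154 ± 35.2 (SD, n = 5) scaled FPKM in the NP vehicle libraries and 136 ± 23.7 (SD, n = 5) in AF vehicle, with overlapping ranges of 97.4 to 187 and 119 to 177. The clusters that made up this sum differed. Clusters A and D took 92.6 ± 1.62% (SD, n = 5) of it in NP vehicle and 60.1 ± 8.94% (SD, n = 5) in AF vehicle, while cluster C took 0.725 ± 0.582% and 23.5 ± 6.94% (SD, n = 5). Cluster B took 6.65 ± 1.58% and 16.4 ± 3.02% (SD, n = 5). Taken singly, cluster D took 42.2 ± 7.94% in NP vehicle and 18.1 ± 6.56% in AF vehicle (SD, n = 5). Cluster A took 50.4 ± 7.32% and 42.0 ± 3.22% (SD, n = 5), with overlapping ranges of 41.6% to 60.2% and 39.2% to 47.5%. The 4 highest genes of NP vehicle (Hoxd9, Hoxd8, Hoxa7 and Hoxa5) made up 64.6% of its Hox sum on average, and the same genes 27.6% of the AF sum. These 4 were chosen by their NP level, which favours a lower share in AF. In AF vehicle the highest means were those of Hoxa10, Hoxa7, Hoxd8, Hoxd9 and Hoxc10. The first 4 of these made up 35.0% of the AF vehicle sum on average, and 55.8% of the NP vehicle sum. In bulk tissue, fewer cells that express a gene and less RNA of it per cell cannot be told apart. The AF libraries also held more RNA of the other cell types given above. Mean marker sums in AF vehicle against NP vehicle were 12719 and 1154 scaled FPKM for neutrophils, 3408 and 273 for muscle, and 927 and 21.3 for fibroblasts. The part of such cells in the AF Hox levels was not tested.

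**Figure D1:**
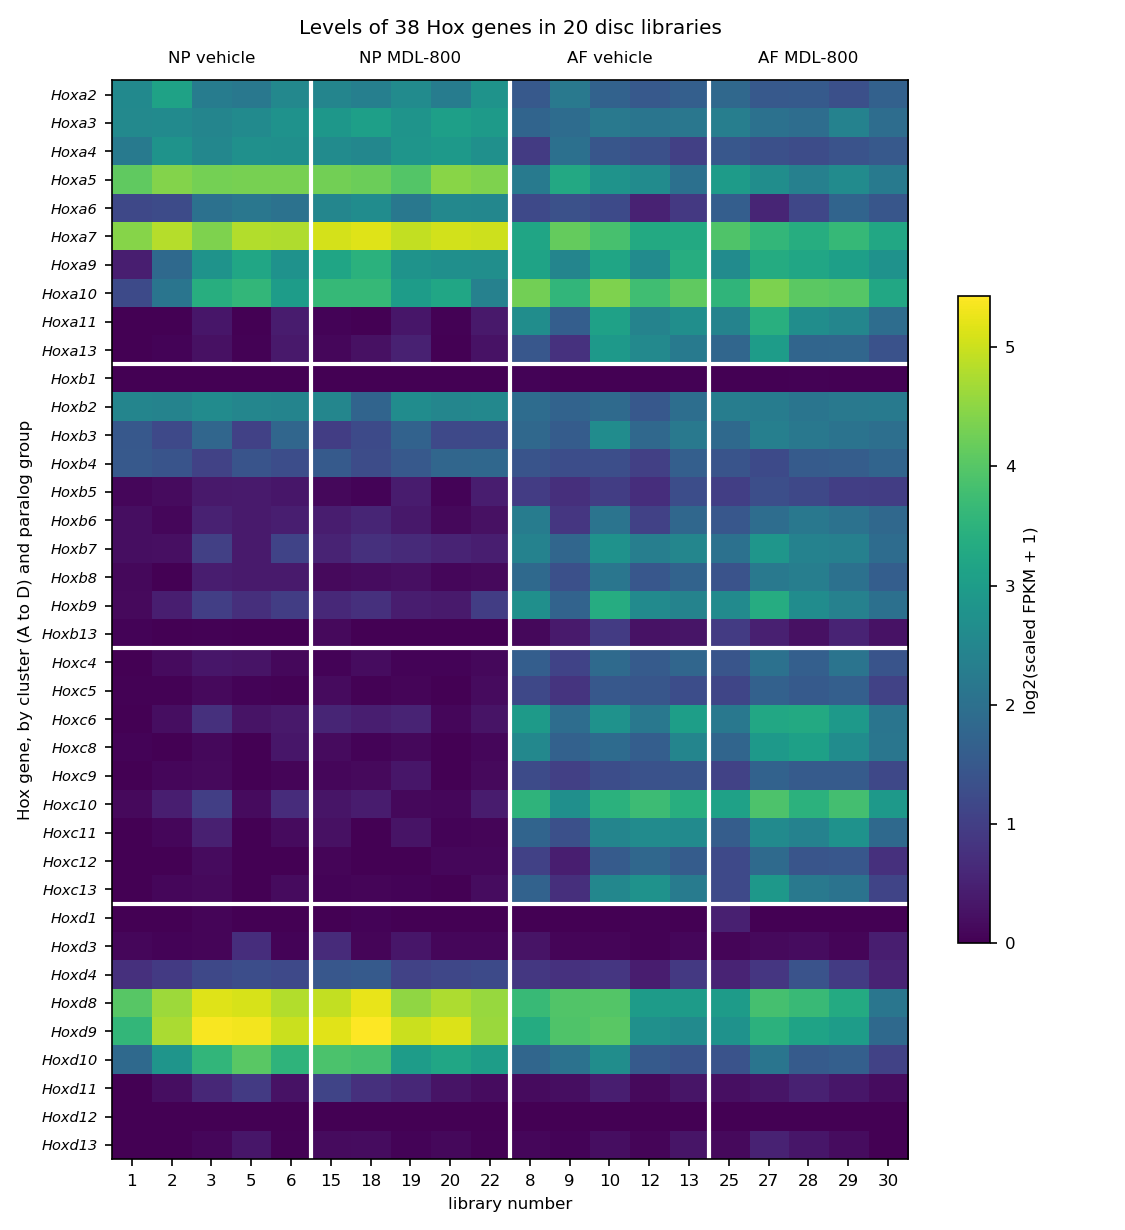
Level of 38 Hox genes (one line per gene, by cluster and paralog group) in each of the 20 libraries (columns, by group), as log2(scaled FPKM + 1) in colour. Cluster C is dark in all 10 NP libraries and lit in the AF libraries, while Hoxa5, Hoxa7, Hoxd8 and Hoxd9 are brightest in NP.

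**Figure D2:**
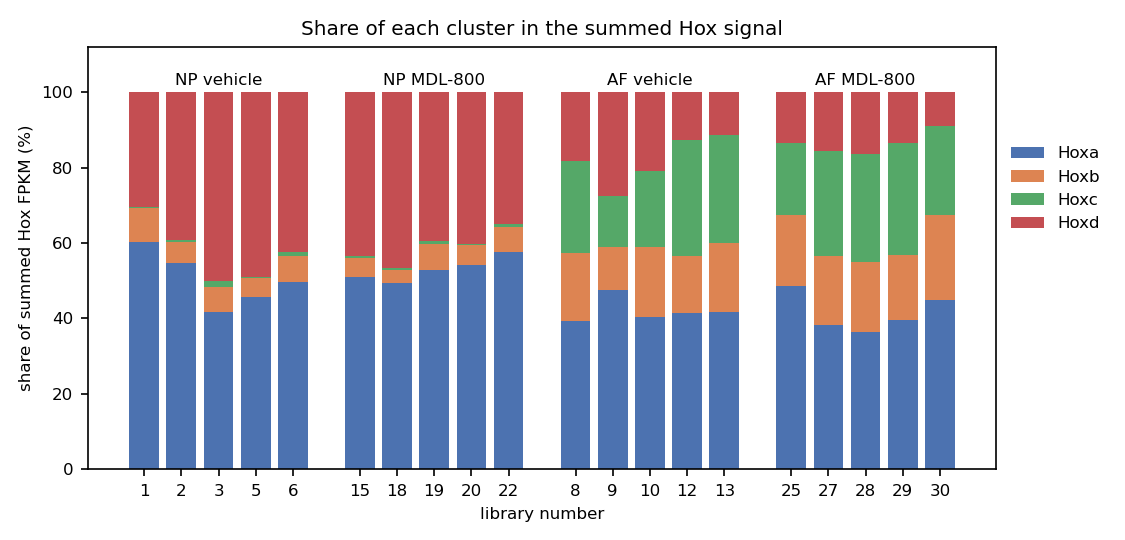
Share of the summed Hox FPKM taken by each cluster in each library, in percent. Cluster C takes at most 1.62% in NP vehicle libraries and at least 13.4% in AF vehicle libraries, the lowest of these being library 9.

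With limma, 28 of the 32 tested members were called between NP and AF in vehicle, where 55.7% of all genes tested were called. The 11 higher in NP stand beside 21.8% of all genes, and the 17 lower beside 33.9%. The median log2 difference was -0.96 over the tested members and -0.08 over all genes. Groups did not overlap for 7 higher and 16 lower members, beside 15.1% and 25.9% of all genes. Quantile normalization moved the median of all genes from -0.08 to 0.20 and the share of higher among called genes from 39.2% to 62.3%, and under it 13 members were called higher and 16 lower. Under MDL-800, in libraries that the vehicle comparison does not use, 28 members were again called, 11 higher and 17 lower, beside 62.8%, 25.6% and 37.2% of all genes, with 10 and 17 that did not overlap beside 18.5% and 30.5%. The members called in both comparisons numbered 26, all in the same direction. Among them are the 16 that entered the test through AF alone. The filter, set over all 20 libraries, fixed their direction in both comparisons, so their agreement supports nothing. Hoxa10 and Hoxb2 were called in vehicle alone, Hoxb3 and Hoxd4 under MDL-800 alone, and Hoxa9 and Hoxb4 in neither.

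**Figure D3:**
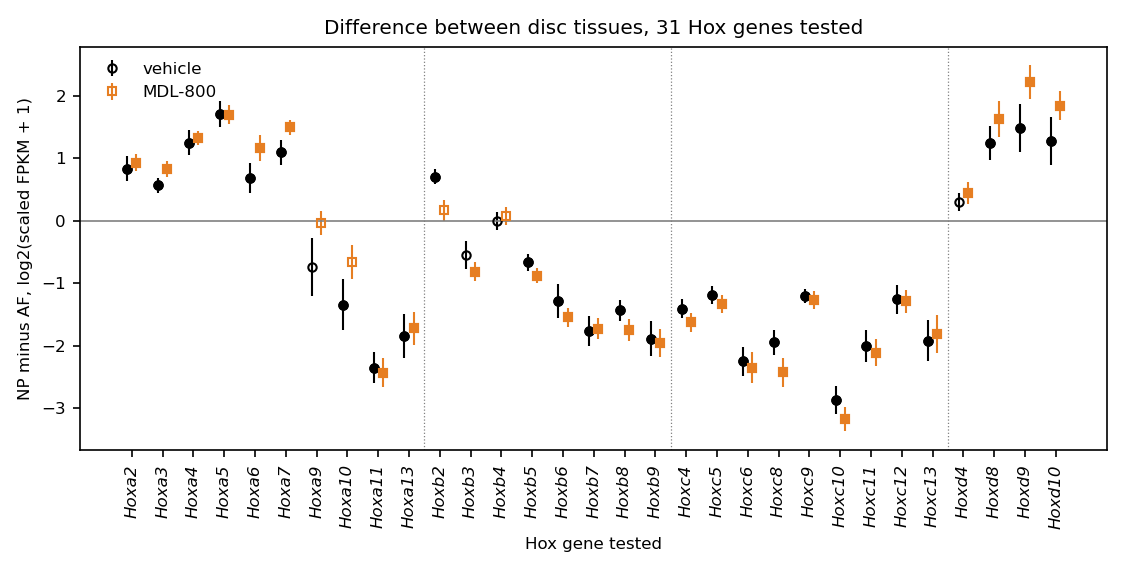
Difference NP minus AF of 31 tested Hox genes on the log2(scaled FPKM + 1) scale, with standard errors, in vehicle (circles) and under MDL-800 (squares); filled symbols passed a limma adjusted p under 0.05. Hoxa2 to Hoxa7 and the genes of cluster D lie above 0, while Hoxa11, Hoxa13 and the genes of cluster C lie below it.

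Cluster A changed side within the cluster. The genes from Hoxa2 to Hoxa7 were called higher in NP in both comparisons, and Hoxa11 and Hoxa13 were called lower in both. Hoxa11 and Hoxa13 entered the test through AF alone, which fixed their direction. Hoxa2, which patterns the hindbrain and its neural crest, was at 4.99 ± 1.68 scaled FPKM in the NP vehicle libraries against 2.33 ± 0.713 (SD, n = 5) in AF vehicle. Its log2 difference was 0.83 ± 0.20 (SE, limma adjusted p = 0.00483), and the groups overlapped. Hoxa3 and Hoxa4, genes of cervical levels, were at 5.04 ± 0.463 and 5.11 ± 0.899 (SD, n = 5) in NP vehicle against 3.11 ± 0.518 and 1.64 ± 0.844 (SD, n = 5). Hoxa6, a thoracic gene, was at 2.45 ± 1.05 in NP vehicle and 1.09 ± 0.439 in AF vehicle (SD, n = 5), a log2 difference of 0.69 ± 0.24 (SE, limma adjusted p = 0.0319). Its call in vehicle ended without NP vehicle library 3, 5 or 6 or without AF vehicle library 12 or 13 (limma adjusted p from 0.0667 to 0.0773), and under MDL-800 it was 1.16 ± 0.21 (SE, limma adjusted p = 6.8e-04).

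Hoxa5 (ENSMUSG00000038253), a regulator of the cervicothoracic transition and of lung development, had the largest upward difference of all Hox genes in vehicle. It was at 16.3, 20.5, 18.7, 18.9 and 19.0 scaled FPKM in the NP vehicle libraries and at 3.73, 8.76, 5.87, 5.13 and 3.03 in the AF vehicle libraries. Its log2 difference was 1.71 ± 0.21 (SE, limma adjusted p = 7.1e-05). Every NP library lay above every AF library, and the highest AF value was that of library 9. Under MDL-800 it was at 18.3, 17.6, 14.7, 21.1 and 19.9 in the NP libraries and 6.84, 5.31, 4.14, 5.15 and 3.63 in AF, a log2 difference of 1.70 ± 0.15 (SE, limma adjusted p = 5.8e-06). Hoxa7 (ENSMUSG00000038236), the most abundant member of cluster A, was at 20.7, 27.2, 19.7, 26.9 and 26.7 in NP vehicle and 8.14, 16.6, 13.4, 8.90 and 8.80 in AF vehicle (log2 difference 1.09 ± 0.19, SE, limma adjusted p = 7.1e-04). These groups did not overlap either, and library 9 was again the highest of AF. Under MDL-800 it stood at 33.0, 35.1, 29.5, 32.2 and 31.2 in the NP libraries and at 14.3, 11.1, 9.42, 11.4 and 8.53 in AF (log2 difference 1.49 ± 0.12, SE, limma adjusted p = 3.9e-06). Hoxa4 was at 3.73, 5.94, 4.69, 5.63 and 5.55 in NP vehicle and 0.910, 3.02, 1.75, 1.503 and 1.03 in AF vehicle (log2 difference 1.25 ± 0.21, SE, limma adjusted p = 4.6e-04). All NP values of Hoxa4 were above all AF values, of which library 9 was the highest. Under MDL-800 Hoxa4 was at 5.15, 4.67, 6.15, 6.51 and 5.58 in the NP libraries and at 1.77, 1.52, 1.41, 1.63 and 1.88 in AF.

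From Hoxa9 onward the direction was the opposite or absent. Hoxa9, at the thoracic to lumbar boundary, was at 4.60 ± 3.10 in NP vehicle and 7.01 ± 2.12 in AF vehicle (SD, n = 5) and was called in neither comparison. Hoxa10, of the paralog group that suppresses ribs at lumbar levels, was at 1.33, 3.33, 9.65, 11.1 and 7.06 in NP vehicle and at 18.3, 10.9, 19.9, 12.5 and 16.2 in AF vehicle (log2 difference -1.35 ± 0.41, SE, limma adjusted p = 0.0167). The groups overlapped, since NP library 5 was above AF library 9, and NP libraries 1 and 2 were the lowest. Under MDL-800 it was at 11.5, 11.4, 7.05, 8.28 and 4.19 in the NP libraries and 10.7, 19.6, 15.6, 14.9 and 8.60 in AF (log2 difference -0.67 ± 0.27, SE, limma adjusted p = 0.0513). The difference between these 2 tissue contrasts was 0.68 ± 0.52 (SE, limma adjusted p = 1). Hoxa11, of the paralog group of sacral identity, was at 0, 0, 0.263, 0 and 0.326 in NP vehicle and 5.35, 2.09, 7.56, 4.40 and 5.43 in AF vehicle (log2 difference -2.35 ± 0.24, SE, limma adjusted p = 2.6e-05). Under MDL-800 the values were 0.0299, 0, 0.262, 0.0212 and 0.299 in the NP libraries and 4.41, 9.79, 5.31, 4.66 and 2.84 in AF. No NP library reached 0.4 scaled FPKM for Hoxa11, and no AF library was under 2. Hoxa13, a gene of digits, hindgut and the caudal end, was at 0, 0.0309, 0.182, 0.0197 and 0.286 in NP vehicle and 1.77, 0.705, 6.60, 4.84 and 3.65 in AF vehicle (log2 difference -1.85 ± 0.35, SE, limma adjusted p = 0.00111). With MDL-800 it was at 0.0697, 0.179, 0.414, 0 and 0.196 in the NP libraries and 2.49, 6.99, 2.40, 2.45 and 1.56 in AF. Its NP and AF libraries did not overlap, but within AF vehicle it spanned 0.705 (library 9) to 6.60 (library 10).

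**Figure D4:**
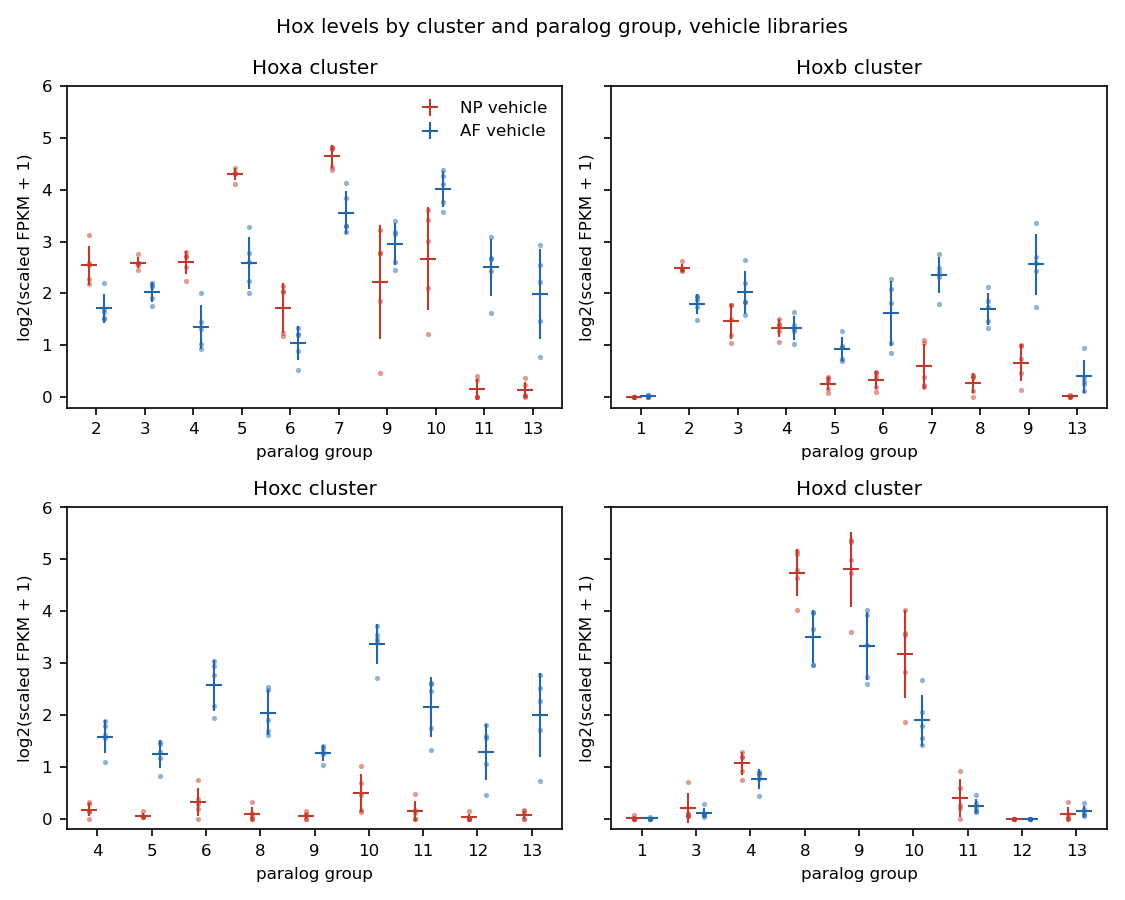
Level of 38 Hox genes in vehicle libraries by cluster and paralog group, as log2(scaled FPKM + 1), with points for the 5 libraries of NP and of AF, and the mean with its SD. In cluster A, NP lies above AF up to group 7 and below it for groups 11 and 13, in cluster C, NP lies near 0 throughout, and in cluster D the levels of both tissues peak at groups 8 and 9.

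Cluster C was low in the NP libraries and expressed throughout in AF. All 9 of its genes were called lower in NP in both comparisons, under each processing alternative run in which they were tested. In neither did any of them overlap between tissues. But all 9 entered the test through AF alone, which fixed their direction, so these counts describe them and support nothing. In NP vehicle 8 of the 9 were under 1 scaled FPKM in every library, and under MDL-800 all 9 were. Their sum was 1.20 ± 1.05 scaled FPKM in the NP vehicle libraries and 31.7 ± 8.97 in AF vehicle (SD, n = 5). The 9 genes stood in NP vehicle at 1.41% to 6.55% of their AF mean, beside 1.38% to 142.3% for the 12 AF markers (median 2.63%), and the part of AF RNA in these low NP values was not tested.

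Hoxc10 (ENSMUSG00000022484), a gene of lumbosacral levels and hindlimb motor neurons, was the most abundant member of cluster C. It had the largest difference of all Hox genes on the log2(scaled FPKM + 1) scale, but not as a ratio. Its AF vehicle mean was 21.5 times its NP vehicle mean, against 70.9 times for Hoxc12, 61.5 for Hoxc13 and 42.1 for Hoxa11. It was at 0.0965, 0.382, 1.02, 0.118 and 0.612 scaled FPKM in the NP vehicle libraries and 10.6, 5.54, 10.1, 12.1 and 9.65 in AF vehicle, a log2 difference of -2.88 ± 0.23 (SE, limma adjusted p = 6.9e-06). Under MDL-800 it was at 0.229, 0.337, 0.0908, 0.0635 and 0.329 in the NP libraries and 7.58, 14.0, 10.2, 13.1 and 6.55 in AF (log2 difference -3.18 ± 0.20, SE, limma adjusted p = 1.1e-06). The lowest AF vehicle value, again that of library 9, was above every NP value. Hoxc6, a gene of the cervicothoracic region, was at 0, 0.144, 0.678, 0.217 and 0.296 in NP vehicle and 6.72, 2.83, 5.78, 3.52 and 7.28 in AF vehicle (log2 difference -2.25 ± 0.24, SE, limma adjusted p = 2.9e-05). Under MDL-800 Hoxc6 was at 0.478, 0.368, 0.454, 0.0741 and 0.227 in the NP libraries and 3.51, 8.53, 8.81, 6.50 and 3.33 in AF. AF was higher in each library, and library 9 was the lowest of its group. Hoxc11, a sacral gene, was at 0, 0.0722, 0.395, 0 and 0.118 in NP vehicle and 2.37, 1.496, 4.54, 5.14 and 5.04 in AF vehicle (log2 difference -2.003 ± 0.25, SE, limma adjusted p = 8.8e-05). With MDL-800 Hoxc11 was at 0.189, 0, 0.212, 0.0317 and 0.0515 in the NP libraries and 2.03, 5.09, 4.31, 5.82 and 2.60 in AF. Its 10 AF libraries all exceeded 1, and its NP libraries did not reach 0.4.

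The caudal end of cluster C followed the same side. Hoxc12 was at 0, 0, 0.111, 0 and 0 in NP vehicle and 1.07, 0.376, 1.94, 2.502 and 2.01 in AF vehicle (log2 difference -1.26 ± 0.23, SE, limma adjusted p = 8.4e-04). Under MDL-800 Hoxc12 was at 0.0597, 0, 0, 0.0635 and 0.0618 in the NP libraries and 1.30, 2.65, 1.68, 1.78 and 0.683 in AF. It is listed at 0 in 6 NP libraries, where 1 fragment is worth 0.0606 FPKM and 3 fragments 0.182. Hoxc13, known from hair and nail formation, was at 0, 0.0619, 0.101, 0 and 0.118 in NP vehicle and 2.26, 0.666, 4.74, 5.83 and 3.81 in AF vehicle (log2 difference -1.92 ± 0.33, SE, limma adjusted p = 5.4e-04). Under MDL-800 Hoxc13 was at 0.0398, 0.0526, 0.0303, 0 and 0.134 in the NP libraries and 1.28, 6.48, 3.58, 3.16 and 1.17 in AF. The AF spread was wide, with library 9 lowest among vehicle libraries. Hoxc8, a thoracic gene, was at 0.0322, 0, 0.0809, 0 and 0.257 in NP vehicle and 4.82, 2.23, 2.74, 2.06 and 4.57 in AF vehicle (log2 difference -1.95 ± 0.20, SE, limma adjusted p = 2.5e-05), and under MDL-800 at 0.119, 0.0316, 0.0908, 0 and 0.0618 in the NP libraries and 2.42, 6.61, 7.49, 5.24 and 3.36 in AF. Hoxc4, Hoxc5 and Hoxc9 were at 2.05 ± 0.602, 1.40 ± 0.418 and 1.41 ± 0.235 (SD, n = 5) in AF vehicle and at 0.134 ± 0.102, 0.0405 ± 0.0349 and 0.0425 ± 0.0432 (SD, n = 5) in NP vehicle. All 9 genes of the cluster thus lay on 1 side, the side fixed by the filter, whatever their position along it.

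Cluster D was the counterpart, with its central genes highest in NP. Hoxd8, Hoxd9 and Hoxd10 were called higher in NP in both comparisons. Hoxd9 (ENSMUSG00000043342), which with its paralogs acts at the thoracic to lumbar boundary, had the highest mean of all Hox genes over the 20 libraries. It was at 11.1, 25.7, 40.6, 39.6 and 30.7 in NP vehicle and 9.14, 14.2, 15.4, 5.64 and 5.05 in AF vehicle (log2 difference 1.48 ± 0.38, SE, limma adjusted p = 0.00703). The groups overlapped, because NP library 1 lay below AF libraries 9 and 10. Under MDL-800 it was at 35.1, 42.1, 30.7, 34.3 and 23.5 in the NP libraries and 5.81, 10.2, 7.89, 7.05 and 2.63 in AF (log2 difference 2.21 ± 0.27, SE, limma adjusted p = 4.8e-05), without overlap. Hoxd10, a gene of lumbar motor neurons and the limb, was at 2.63, 6.15, 10.9, 15.4 and 10.6 in NP vehicle and 2.47, 3.14, 5.35, 1.92 and 1.68 in AF vehicle (log2 difference 1.27 ± 0.39, SE, limma adjusted p = 0.0163). Again NP library 1 lay within the AF range, and an exact permutation test in place of limma ended this call (adjusted p = 0.0576). With MDL-800 Hoxd10 was at 13.8, 13.3, 7.05, 8.28 and 7.14 in the NP libraries and 1.61, 3.31, 1.95, 2.14 and 1.11 in AF (log2 difference 1.84 ± 0.24, SE, limma adjusted p = 6.4e-05), with every NP library above every AF library. Hoxd8 was at 26.8 ± 7.84 in NP vehicle and 10.9 ± 3.94 in AF vehicle (SD, n = 5), a log2 difference of 1.23 ± 0.27 (SE, limma adjusted p = 0.00277). Hoxd4, at 1.12 ± 0.317 and 0.714 ± 0.206 (SD, n = 5), was called under MDL-800 alone, where leaving out any library but NP 19 or AF 28 ended the call (limma adjusted p from 0.0601 to 0.106). So paralog group 10 was split between the clusters, with Hoxd10 higher in the NP libraries and Hoxa10 and Hoxc10 higher in AF in vehicle.

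Cluster B combined an anterior end without a common direction, from Hoxb2 to Hoxb4, with genes higher in AF from Hoxb5 to Hoxb9. Hoxb2 (ENSMUSG00000075588), a hindbrain gene and the most abundant member of cluster B, was at 4.57, 4.42, 5.17, 4.65 and 4.47 in NP vehicle and 2.79, 2.32, 2.68, 1.82 and 2.87 in AF vehicle (log2 difference 0.70 ± 0.12, SE, limma adjusted p = 5.4e-04). All NP vehicle libraries were above all AF vehicle libraries. Under MDL-800 it was at 4.66, 2.36, 5.27, 4.66 and 4.78 in the NP libraries and 3.93, 3.87, 3.29, 3.57 and 3.71 in AF (log2 difference 0.16 ± 0.16, SE, limma adjusted p = 0.406). Without NP library 18, which was below the other NP libraries, this difference was called at 0.32 (limma adjusted p = 0.0142). Hoxb3 was at 1.81 ± 0.634 in NP vehicle and 3.20 ± 1.29 in AF vehicle (SD, n = 5), -0.56 ± 0.22 (SE, limma adjusted p = 0.0541), and this became a call without NP library 3 or 6 or AF library 9 (limma adjusted p from 0.0292 to 0.0452). Hoxb4, a gene also of blood stem cells, was called in neither comparison, at 1.53 ± 0.286 and 1.54 ± 0.395 (SD, n = 5), with a 95% interval of the log2 difference from -0.31 to 0.31. Under quantile normalization Hoxb4 was called higher in NP in both, at 0.53 in vehicle (limma adjusted p = 0.00976) and 0.60 under MDL-800 (limma adjusted p = 0.00477). From Hoxb5 to Hoxb9 all 5 genes were called lower in NP in both comparisons, but they entered the test through AF alone, which fixed their direction. Their sum was 1.87 ± 1.22 scaled FPKM in the NP vehicle libraries and 15.1 ± 5.51 in AF vehicle (SD, n = 5). Hoxb9, of the thoracic rib cage, was at 0.630 ± 0.388 and 5.30 ± 2.52 (SD, n = 5), and Hoxb7 at 0.566 ± 0.487 and 4.24 ± 1.19 (SD, n = 5). Hoxb8 was at 0.212 ± 0.159 and 2.32 ± 0.734, and Hoxb6 at 0.262 ± 0.145 and 2.30 ± 1.33 (SD, n = 5). Hoxb5 was at 0.205 ± 0.109 and 0.932 ± 0.325 (SD, n = 5), a difference of -0.67 that under quantile normalization was -0.10 and not called (limma adjusted p = 0.547).

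Taking the clusters in sum, paralog groups 9 to 13 took 31.7 ± 10.4% of the Hox sum in NP vehicle and 50.8 ± 6.54% (SD, n = 5) in AF vehicle. The ranges of 16.1% to 40.8% and 39.7% to 56.5% overlapped. Within them, groups 11 to 13 took 0.492 ± 0.362% in NP vehicle and 13.0 ± 5.69% (SD, n = 5) in AF vehicle. Every tested member of groups 11 to 13 entered the test through AF alone. Groups 1 to 3 took 14.3 ± 5.10% and 9.19 ± 1.16% (SD, n = 5), and groups 4 to 8 took 54.0 ± 5.30% and 40.03 ± 5.70% (SD, n = 5). The 7 members that were not tested were low everywhere. Their highest deposited values were 0.03 FPKM for Hoxb1, 0.97 for Hoxb13, 0.41 for Hoxd1, 0.65 for Hoxd3, 1.16 for Hoxd11 and 0.45 for Hoxd13, and Hoxd12 was listed at 0 in all 20 libraries. The caudal genes Hoxb13, Hoxd12 and Hoxd13, which act in tail, digits and prostate, thus stayed under 1 FPKM in both tissues, while Hoxa13 and Hoxc13 reached 6.99 and 6.48 scaled FPKM in AF.

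The 11 members higher in NP vehicle were in AF vehicle at 28.4% to 61.6% of their NP mean (median 40.8%), beside the 21.7% to 51.6% of the NP markers given above. The part of NP RNA in these AF values was not tested. In AF vehicle, library 9, with the highest NP marker sum, had the highest value of Hoxa2 to Hoxa7 but Hoxa3, and the lowest of each cluster C gene but Hoxc8. Without it, 11 members were called higher and 18 lower in the vehicle comparison.

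The NP vehicle libraries differed among themselves in the genes of paralog groups 8 to 10 of clusters A and D. Here library 1 was the lowest of the 5 for each of Hoxa9, Hoxa10, Hoxd8, Hoxd9 and Hoxd10. The highest library exceeded the lowest 22.1 times for Hoxa9, 8.38 times for Hoxa10, 5.85 times for Hoxd10 and 3.65 times for Hoxd9, but 1.26 times for Hoxa5 and 1.38 times for Hoxa7. Low members also spread widely, such as Hoxc10 at 10.6 times, Hoxb9 at 9.35 times and Hoxb7 at 7.57 times, all with a lowest value under 0.2 scaled FPKM. Hoxa9 was at 0.375, 2.64, 5.88, 8.29 and 5.84 in these libraries. Libraries 1 and 2 had the most Hoxa2, at 4.99 and 7.79. The share of groups 9 to 13 in the Hox sum was 16.1% in library 1, 26.8% in library 2, 40.2% in library 3, 40.8% in library 5 and 34.6% in library 6, and that of groups 1 to 3 was 22.0%, 16.7%, 10.7%, 9.49% and 12.6%. In NP MDL-800 the highest library exceeded the lowest 1.85 times for Hoxa9 and 2.74 times for Hoxa10, below Hoxb5 at 11.4 times and Hoxb6 at 5.72 times. There, library 22 had the lowest Hoxa9, Hoxa10 and Hoxd9, and the smallest share of groups 9 to 13 (27.0%). The AF marker sum of NP vehicle library 1 was 1585 scaled FPKM, the highest of its group, against 792.5 to 1311 in the others. This sum takes in all 12 AF markers, Fmod, Scx and Mkx among them. Yet library 1 had the lowest cluster C share of the Hox sum in its group, at 0.154%, against up to 1.62% in library 3. Its sum of Hoxb5 to Hoxb9 was also the lowest, at 0.557 scaled FPKM, against up to 3.11 in library 3. The part of AF RNA in the values of library 1 was not tested.

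MDL-800 moved no Hox gene past the threshold in either tissue. The treatment comparisons use the same libraries as the tissue comparisons. In NP, 0 of the 32 members were called by limma, beside 0.25% of all genes (41 genes). With 1 library left out, the count over all genes ran from 2 (without NP vehicle library 3 or NP MDL-800 library 22) to 189 (without NP vehicle library 6), with each of the 10 libraries moving it by over 1.5 times, and that of members stayed 0. An exact permutation test called 0 members and 0 of all genes, so it does not set the members apart. In limma 3 members had an unadjusted p under 0.05, beside 14.1% of all genes. These 3, Hoxa3, Hoxa6 and Hoxa7, were also the members whose groups did not overlap, all with NP MDL-800 above NP vehicle, beside 3.5% of all genes. Hoxa3 was at 4.89, 5.03, 4.502, 5.01 and 5.78 scaled FPKM in the NP vehicle libraries and 6.30, 7.41, 5.98, 7.39 and 6.82 in NP MDL-800, a log2 difference of 0.36 ± 0.09 (SE, limma adjusted p = 0.113). The lowest MDL-800 library stood just above the highest vehicle library. In AF, Hoxa3 was at 2.37, 2.76, 3.595, 3.34 and 3.46 in vehicle and 4.02, 3.06, 2.85, 4.31 and 2.85 with MDL-800, where the groups overlapped. Hoxa7 had a log2 difference in NP of 0.40 ± 0.10 (SE, limma adjusted p = 0.108), from the library values given above. Hoxa6 was at 1.25, 1.35, 3.07, 3.42 and 3.14 in NP vehicle and 4.63, 5.26, 3.49, 4.75 and 4.75 in NP MDL-800 (log2 difference 0.75 ± 0.21, SE, limma adjusted p = 0.145), with libraries 1 and 2 low among vehicle. The median over the members was 0.02 and over all genes -0.03.

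In AF, 0 members were called, as were 0% of all genes, and 1 member had an unadjusted p under 0.05, beside 1.65% of all genes. That member was Hoxb2, with the library values given above, at 2.496 ± 0.435 in AF vehicle and 3.67 ± 0.258 in AF MDL-800 (SD, n = 5). Every AF MDL-800 library was above every AF vehicle library, as for 0.128% of all genes, and the log2 difference was 0.43 ± 0.12 (SE, limma adjusted p = 1). Hoxc8 had the next smallest p in AF, with a log2 difference of 0.46 ± 0.29 (SE, limma adjusted p = 1). For the effect in NP minus that in AF, 0 members and 0% of all genes were called, and Hoxb2 alone had an unadjusted p under 0.05, beside 3.73% of all genes (log2 difference -0.54 ± 0.20, SE, limma adjusted p = 1). Intervals were wide for Hoxa9, Hoxa10 and Hoxd10. The 95% interval of the log2 difference in NP ran from -0.26 to 1.75 for Hoxa9, from -0.47 to 1.48 for Hoxa10 and from -0.60 to 1.06 for Hoxd10, and from -0.26 to 0.19 for Hoxa5.

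**Figure D5:**
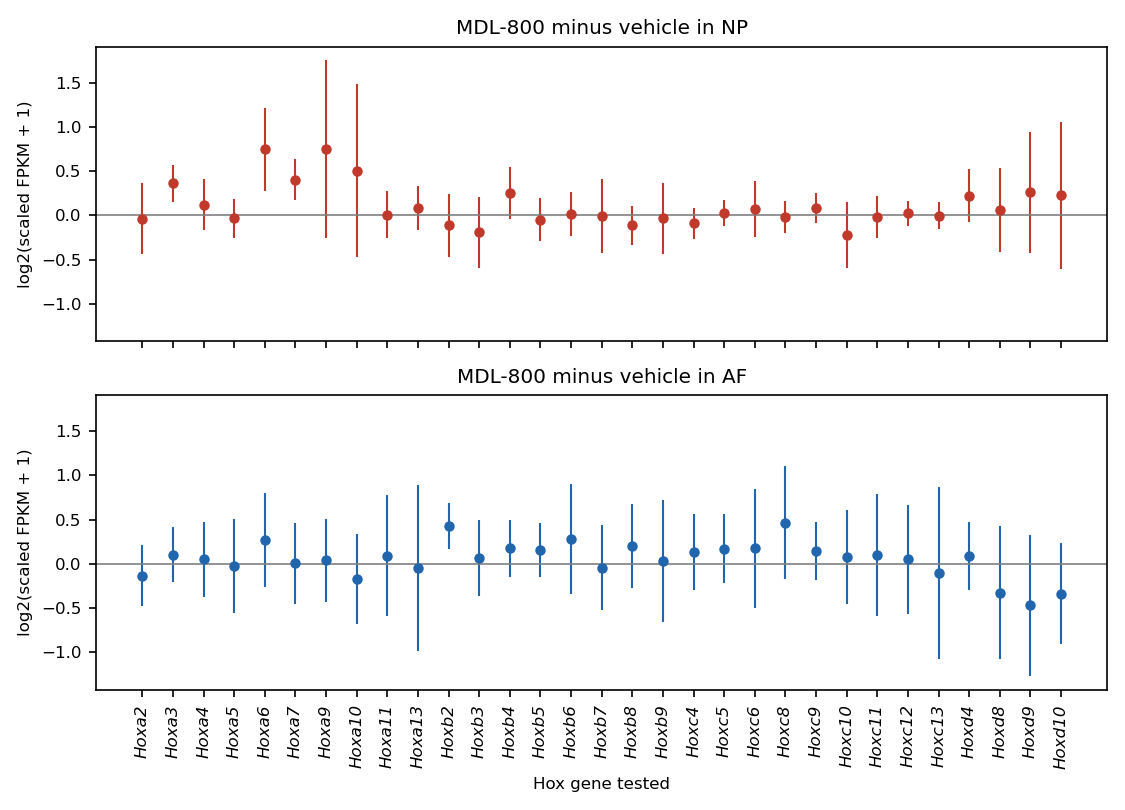
Difference MDL-800 minus vehicle for 31 tested Hox genes in NP (top) and AF (bottom) on the log2(scaled FPKM + 1) scale, with 95% intervals. In NP the intervals of Hoxa3, Hoxa6 and Hoxa7 lie above 0 before adjustment, and in AF that of Hoxb2 does, but 0 genes passed the limma adjusted p.

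Among the partners of HOX proteins, the TALE-class cofactors that bind DNA with them, 2 of 9 tested genes were called higher in NP vehicle and 2 lower, with a median of 0.20 beside -0.08 over all genes, of which 21.8% were called higher and 33.9% lower. These shares hold as the background for each list below. Under quantile normalization 5 cofactors were called higher and 2 lower. Pbx3 was higher by 1.07 (limma adjusted p = 6.7e-05) and Meis2 by 0.84 (limma adjusted p = 0.00225). Meis3 differed by -1.13 (limma adjusted p = 9.7e-04) and Pknox1 by -0.89 (limma adjusted p = 0.0013). Of 21 Polycomb genes 5 were called higher and 5 lower (median -0.07), but 10 and 2 under quantile normalization (median 0.22). The methyltransferase Ezh2 was lower in NP, at -1.32 (limma adjusted p = 3.1e-05), as was Phf19 at -0.77 (limma adjusted p = 0.00189) and Cbx2 at -0.56 (limma adjusted p = 0.00795), but the calls of Phf19 and Cbx2 were lost under quantile normalization. Cbx7, Scmh1 and Phc3 were higher by 0.55, 0.50 and 0.49. Of 13 trithorax and H3K27 demethylase genes 5 were called higher and 2 lower (median 0.04), and 8 and 1 under quantile normalization (median 0.28). Kmt2a, which encodes the methyltransferase MLL1, was higher by 0.88 (limma adjusted p = 0.00207), and Kmt2d by 0.65 (limma adjusted p = 9.1e-04). Kdm6b, an H3K27 demethylase, was higher by 0.64 (limma adjusted p = 0.0384), a call lost without scaling, and Psip1 and Kmt2c were higher by 0.37 and 0.36. Wdr5, a shared subunit of these complexes, was lower at -0.59 (limma adjusted p = 0.00221).

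Of 10 tested regulators of Hox onset in the embryo, 0 were called higher and 9 lower in vehicle (median -1.21), beside 33.9% of all genes called lower. Of the 10, 5 were under 1 scaled FPKM in every NP library and so entered the test through AF alone, which fixed their direction. The genes called included the RNA-binding Lin28a at -2.36 (limma adjusted p = 6.3e-05), the ligands Mstn at -1.92 (limma adjusted p = 2.0e-04) and Gdf11 at -1.28 (limma adjusted p = 9.4e-05), and the retinoic acid receptor Rarb at -1.13 (limma adjusted p = 6.4e-05). The retinoic acid degrading enzymes Cyp26b1 and Cyp26a1 were at -1.72 and -1.50. All 9 tested axial and sclerotome genes were called lower, as under MDL-800 (median -2.51), but 6 of them stayed under 1 in every NP library and had to be lower. Their values included Pax1 at -4.18 (limma adjusted p = 9.1e-06), Meox2 at -3.54 (limma adjusted p = 6.9e-06), Prrx2 at -3.45 (limma adjusted p = 1.0e-05), Meox1 at -2.78 (limma adjusted p = 6.5e-06), Pax9 at -2.51 (limma adjusted p = 2.2e-05) and Tbx18 at -1.66 (limma adjusted p = 3.1e-05). Pax1 and Pax9 are also on the list of AF markers. The AF marker sum was also lower in NP, at 792.5 to 1585 in NP vehicle and 3050 to 9568 in AF vehicle. Its part in the values of these genes was not tested.

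The noncoding RNA genes inside the clusters were called 5 of 7 higher in NP and 2 lower in both comparisons, beside 21.8% and 33.9% of all genes in vehicle and 25.6% and 37.2% under MDL-800. The 2 lower stayed under 1 in every NP library, and 1 of the 5 higher, Hoxaas2, under 1 in every AF library, so the filter fixed their direction. Hotairm1, in cluster A, was higher by 1.46 (limma adjusted p = 0.00366), Hoxaas3 by 1.17 (limma adjusted p = 0.00289) and Hoxaas2 by 0.64 (limma adjusted p = 0.00183). Hoxd3os1 was higher by 1.29 (limma adjusted p = 8.9e-04). Hoxa11os, opposite Hoxa11, was lower at -2.04 (limma adjusted p = 3.7e-05), and Hotair, in cluster C, at -1.20 (limma adjusted p = 0.00135). Without the strand, reads of Hoxa11os and Hoxa11 cannot be told apart where they overlap, and neither can those of Hoxaas3 and Hoxa7. Of 18 tested genes that flank the clusters on the outside, 5 were called higher and 9 lower (median -0.28), and 6 and 6 under quantile normalization. The largest were Nfe2, a blood cell factor beside cluster C, at -3.53 (limma adjusted p = 1.6e-04), Skap1 at -1.56 (limma adjusted p = 1.4e-04) and Snx10 at 1.54 (limma adjusted p = 1.6e-04). Atp5g1 and Mtx2 were both at -0.76, the latter not called under quantile normalization, and Calcoco1 was at 0.74. No gene of these 7 lists was called in either treatment comparison.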

How the data were processed

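RNA was measured in 20 libraries from stranded total RNA after removal of ribosomal RNA, with 50 ng of input and 14 PCR cycles per the labels' protocols. The table holds FPKM for 51789 genes, deposited by the authors with 2 decimals. STAR 2.7.11b and mm10 are named in the submitters' processing notes, and the counting program, annotation and strand setting are not given in the sources used here. FPKM were divided by median-of-ratios factors over 11308 genes (0.933 to 1.06). Differences were tested with limma 3.58.1 (R 4.3.3, trended variance) on log2(scaled FPKM + 1) over the 16383 genes that reached 1 FPKM in 5 or more libraries, with Benjamini-Hochberg adjustment, 5 libraries against 5. Depth was estimated from the steps between low values (79.5% to 85.2% of them whole fragments within 0.15). Tables and plots used Python 3.11.15, pandas 2.3.3 and matplotlib 3.10.9. No 2 libraries held identical values. The fit was tested on simulated data.

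Values in each library are given for the most abundant gene of each cluster, the 4 called members with the largest change in each direction in vehicle, the 2 with the smallest p in each treatment comparison and all of paralog groups 10 to 13. Other genes given by library were chosen after their values were seen. At most 6 called genes of each list are named, by size of change in vehicle. 1 member is in the counts and sums but is not reported by itself here. The members and lists were chosen with earlier results of these data known. Alternatives were other scalings, pseudocounts and filters, all 4 groups in the fit, an exact permutation test (252 splits), leaving out each library and, chosen after seeing the data, a block on the number in the original library names.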

Additional observations from a re-analysis of the deposited data

Results flagged for a closer look

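Of 124 sets of 5 libraries (31 tested Hox genes in 4 groups), 6 had 1 library set apart from the other 4 by a gap beyond the 95% critical value of Dixon's test, and chance gives about 1 in 20. In AF vehicle, library 9 was high in Hoxa2 at 3.57 scaled FPKM (others 1.85 to 2.24), and it also had the highest NP marker sum of its group, whose part in this value was not tested. Hoxd4 was low in AF vehicle library 12, at 0.362 (others 0.705 to 0.857). In AF MDL-800, library 27 was high in the caudal gene Hoxa13 at 6.99 (others 1.56 to 2.49). In NP MDL-800, library 18 was low in Hoxb2 at 2.36 (others 4.66 to 5.27). In NP vehicle, library 3 was high in Hoxc5 at 0.101 (others 0.0197 to 0.0394) and in Hoxc12 at 0.111 (others listed at 0), levels of a few fragments. That library also had the highest skeletal muscle marker sum of its group, at 1095 scaled FPKM (others 10.5 to 119.6), and the highest cluster C sum, at 2.84, and the part of muscle tissue in these values was not tested.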

How the results depend on the processing

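Of the 28 members called between tissues, 25 in vehicle and 25 under MDL-800 were called in every setting in which they were tested, the exceptions being Hoxa6, Hoxb5 and Hoxd10 in vehicle and Hoxb3, Hoxb5 and Hoxd4 under MDL-800. No Hox gene was called for treatment in any setting. Members without a tissue call in the main setting changed sign. Hoxb4 in vehicle was 0.53 under quantile normalization, where it was called (limma adjusted p = 0.00976). It was 0.0036 with a pseudocount of 0.1, 0.00078 with 0.5 and -0.078 to 0.077 with each library left out. Hoxa9 under MDL-800 was 0.34 under quantile normalization and -0.157 to 0.050 with each library left out. Hoxb4 under MDL-800 was 0.60 under quantile normalization, where it was called (limma adjusted p = 0.00477), and -0.00089 to 0.154 with each library left out. Some NP and AF libraries share a number in their names, and whether it marks the same animal is not given in the sources used here. Of these pairs, 2 of 5 in vehicle and 1 of 3 under MDL-800 correlated over 0.1. In each treatment 1 library was best correlated with its own number. So few pairs of different tissues cannot decide whether they share an animal, and the main tests treated all libraries as unpaired. A replicate block on the shared numbers gave 10 higher and 18 lower in both comparisons, without Hoxa6 (adjusted p = 0.0769, limma) and with Hoxb3 (0.0134) in vehicle, and without Hoxd4 (0.459) and with Hoxa10 (0.00998) under MDL-800. Depth limits members at 0 to 3 fragments, such as Hoxc12 in NP.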
